A study of Oryza sativa with 4 samples.

Results

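Leaves of etiolated and light-grown rice seedlings (Oryza sativa indica var. Panvel) were compared as they stood after treatment with water alone, without nitrate. The comparison used the water channel of each of 4 Agilent 2-colour rice arrays, 2 of etiolated and 2 of light-grown leaves, so that 4 of the 8 labelled RNA samples of the series entered it. The light-grown seedlings had 12 h day and night cycles and the etiolated seedlings were kept in total darkness, and both were raised on distilled water with no nutrients for 8 to 10 days at 25 °C, as the labels give it. According to the methods, the first and second leaves were cut off and laid on water, in darkness for the etiolated group, and the methods give a warmer chamber and a shorter treatment than the 2 h in the labels. Growth light and light during the water treatment therefore cannot be told apart. The second RNA on each array came from leaves treated with 120 mM nitrate. It entered the water comparison through the normalization, which used both channels of an array, and through the estimate of the spread. Its own values are given where stated. Replicate 1 of each group carried water RNA in Cy3 and replicate 2 in Cy5, and the methods call the replicates independent biological ones.

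Etiolation is the growth programme of a seedling in darkness, in which leaf plastids stay as etioplasts that lack chlorophyll and stacked thylakoids. Light, perceived by phytochromes and cryptochromes, turns etioplasts into chloroplasts, for which the nucleus supplies the light-harvesting proteins, most photosystem subunits, the small subunit of Rubisco and the pigment enzymes, while the plastid genome encodes the reaction centre proteins and the large subunit of Rubisco. In flowering plants the reduction of protochlorophyllide itself requires light, so leaves raised in the dark are pale yellow.

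Each array holds 44407 spots, of which 1417 are controls, and the remaining spots are 2 copies of each of 21495 probes. Of the water signals, 74.0% to 76.2% of probes were well above background on each array. The number of probes saturated in the water channel was 1 and 19 in the Cy3 samples (light-grown and etiolated replicate 1) and 475 and 79 in the Cy5 samples (light-grown and etiolated replicate 2), so the brightest probes of light-grown replicate 2 were cut short. Across probes the normalized log2 signals correlated at 0.991 between the light-grown replicates and 0.993 between the etiolated replicates, against 0.933 between light-grown and etiolated leaves within either dye. These correlations are across probes, which are not independent replicates. With 2 arrays a group, an exact two-sided permutation test of a single probe cannot go below p = 0.33, so the tests given are those of limma fitted across 21493 probes, and the number of arrays limits their precision. A probe was called at a Benjamini-Hochberg adjusted p of at most 0.05 and an absolute log2 difference of at least 1, which is a 2-fold change.

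In etiolated leaves 2783 probes were higher and 2775 lower than in light-grown leaves, 12.9% and 12.9% of the 21493 tested and 25.9% together. All 5558 moved the same way in the Cy3 pair and in the Cy5 pair, with no overlap between the groups. The thresholds were applied to these same samples and nearly ensure this, and the share among all probes was not counted. The differences of both pairs correlated at 0.902 across all probes. The median fold change was 3.35 among the higher and 3.31 among the lower probes, and 359 rose and 406 fell at least 8-fold. The median log2 difference of all probes was 0.02. Before normalization the median processed water signal was 559.5 and 697.7 in light-grown and 375.5 and 407.9 in etiolated leaves. Normalization between arrays removes such a shift. The even split and the median of 0.02 thus cannot show whether RNA levels as a whole differed. The dimmer group was at background on both arrays, that is not well above it, for 489 called probes in light-grown and 557 in etiolated leaves. For a probe named below in that state the fold is given as "at least", computed against the signal of the dimmest detected probes where the probe read below it. Undetected probes can read above that signal, so "at least" is no strict limit. Log2 values are normalized signals of single probes, and levels of different probes cannot be ranked against each other. In whole leaves, fewer cells of a type and less RNA per cell cannot be told apart.

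**Figure D1:**
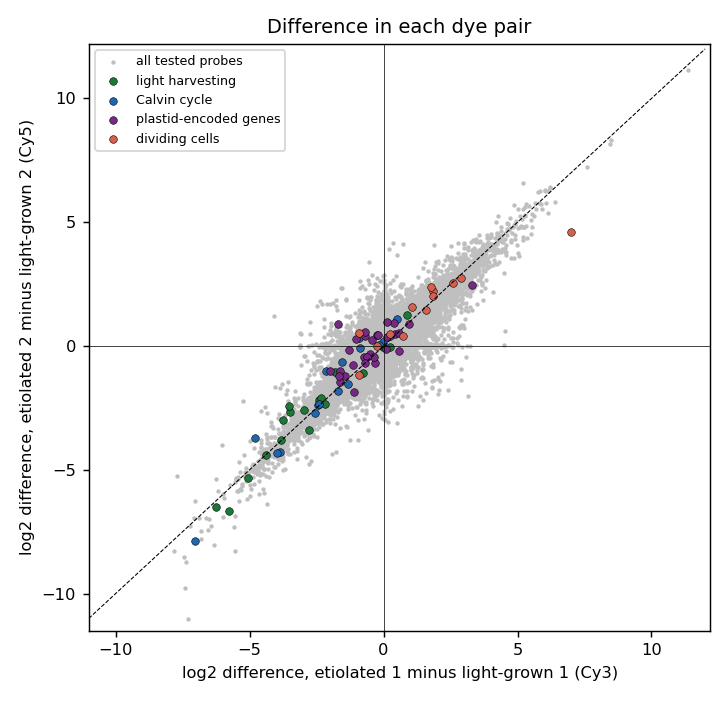
Log2 difference of each probe between etiolated and light-grown leaves, with the Cy3 pair (replicates 1) on the horizontal and the Cy5 pair (replicates 2) on the vertical axis. Grey points are all tested probes, coloured points are the probes of 4 classes, and the dashed line marks equal differences. The 2 pairs correlated at 0.902 across probes, with light-harvesting probes (green) mostly at the lower left and probes for dividing cells (red) mostly at the upper right.

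Probes were grouped into 39 classes by the product named in the array's own description, which for most probes is a similar sequence from another plant and not a named rice gene. Of the 21495 probes 11752 had a description with no product name, and 2644 fell into a class or a marker list. Each probe is identified by the accession of its rice cDNA. Among the classes of light harvesting, photosystems, thylakoid electron transport, carbon fixation, photorespiration, pigments and plastid ribosomal proteins, the share of probes lower in etiolated leaves ran from 45.5% in photosystem II to 100% in photosystem I, beside 12.9% over all probes. The classes with the highest shares of risers were glycolysis and fermentation (32.4%), gibberellin, brassinosteroid and cytokinin (29.0%), histones, replication and cell cycle (28.7%) and auxin (28.2%), beside the same 12.9%. Class counts given below are to be read beside these shares over all probes.

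**Figure D2:**
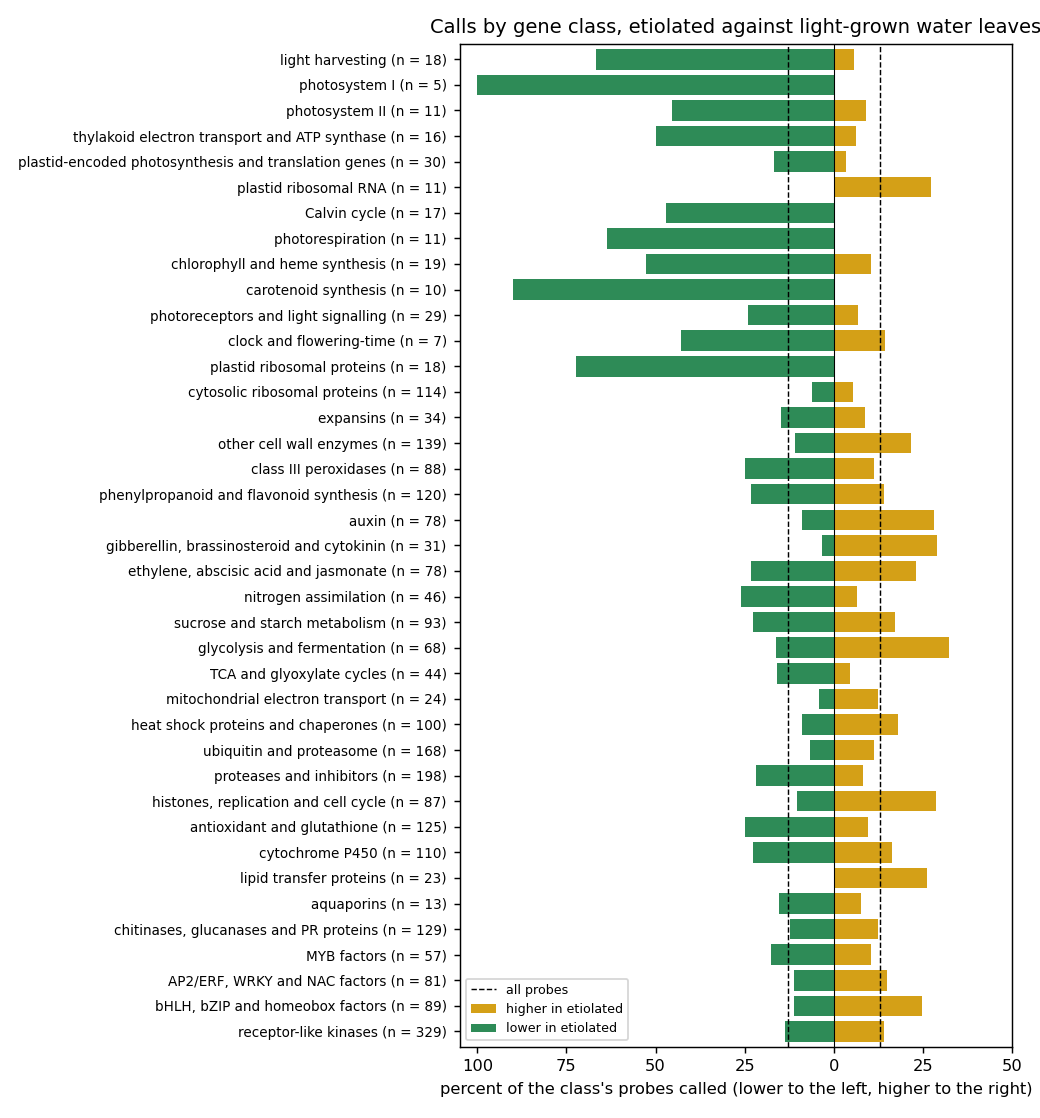
Percent of the tested probes of each class called lower (green bars, to the left) or higher (gold bars, to the right) in etiolated leaves, with the number tested after each class name. Dashed lines mark the 12.9% called in each direction over all probes, and the photosynthesis, pigment and plastid ribosomal protein classes extend far past the left line.

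Light-harvesting proteins bind chlorophyll and pass its excitation energy to the photosystems. Of their 18 probes 12 fell in etiolated leaves, 1 rose and 5 were not called, with a median log2 difference of -2.87. The chlorophyll a/b-binding protein RCABP69 (AK058293) gave log2 signals of 15.17 and 15.07 in light-grown leaves and 9.40 and 8.41 in etiolated leaves, and fell 74.0-fold (log2 difference -6.21 ± 0.53 SE, adjusted p = 0.00167). The type I light-harvesting protein of photosystem II (AK060851) gave 16.31 and 15.54 in light-grown and 11.26 and 10.20 in etiolated leaves, and fell 36.6-fold (-5.20 ± 0.25, adjusted p = 0.000543). For both probes the groups stood far apart, although etiolated replicate 2 lay about 1 log2 unit under replicate 1. Another chlorophyll a/b-binding protein (AK058289) went from 12.07 and 10.04 to 5.83 and 3.54, the latter not well above background (-6.38 ± 0.55, adjusted p = 0.00167). RCABP89 (AK066762) fell 4.93-fold, from 16.48 and 15.76 to 14.05 and 13.58. Light-grown replicate 2 was saturated at 10 of the 18 probes, RCABP69, RCABP89 and the type I protein among them, which cuts their light-grown mean short, and without that replicate 13 probes fell and 0 rose. The single riser, a CP24 probe (AK108672) named after its values were seen, read 4.25 and 3.57 in light-grown and 5.12 and 4.84 in etiolated leaves, well above background on none of the 4 arrays.

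All 5 photosystem I probes fell, with a median of -2.91. They describe subunits K, L, G, D and N of the complex that drives electrons from plastocyanin to ferredoxin. PSI-K (AK058788) fell 18.8-fold, from 16.83 and 15.94 in light-grown leaves to 12.84 and 11.46 in etiolated leaves (-4.23 ± 0.23, adjusted p = 0.000636). PSI-L (AK063111) fell 18.3-fold, from 9.60 and 9.78 to 5.79 and 5.20, the latter not well above background. PsaG (AK098847) fell 7.49-fold, PsaN (AK059037) 6.54-fold and PSI-D (AK072473) 3.39-fold, and light-grown replicate 2 was saturated for these 3 and for PSI-K.

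Of 11 photosystem II probes, for the complex that splits water, 5 fell and 1 rose, and 3 fell under median centring. PSII-S (AK058284), which takes part in the harmless dissipation of excess light energy, fell 30.5-fold, from 13.83 and 13.73 to 9.05 and 8.65 (-4.93 ± 0.15, adjusted p = 0.000445). A probe for the smallest of the oxygen-evolving complex proteins (AK069170) fell 18-fold, from 12.23 and 12.02 to 8.08 and 7.84, and PsbY (AK067636), saturated in light-grown replicate 2, fell 14.1-fold. Another probe with the same oxygen-evolving complex description (AK058793) read 16.81 and 15.67 in light-grown and 15.56 and 15.37 in etiolated leaves and was not called (-0.77 ± 0.38, adjusted p = 0.189). Its light-grown replicate 2 was saturated, and without that replicate the probe was called at -1.41. Probes that share a description also split over the 10-kDa subunit: AK105055 fell 2.83-fold with light-grown replicate 2 saturated, while AK103688 rose 8.14-fold, from 10.96 and 11.06 to 14.07 and 14 (3.02 ± 0.24, adjusted p = 0.00141). Across the array, 1988 product descriptions had several probes, 1033 of these had any call and 127 had calls in both directions. The fifth photosystem II probe that fell, for another of the oxygen-evolving proteins (AK065248, 2.66-fold), lost its call without light-grown replicate 1 (-0.88).

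Among 16 probes for thylakoid electron carriers and the chloroplast ATP synthase, 8 fell and 1 rose, with a median of -1.21. The AtpG subunit of the ATP synthase (AK066019) fell 9.29-fold, from 11.26 and 11.38 to 8.34 and 7.88. A probe described as leaf-type ferredoxin-NADP reductase or ferredoxin (AK065309) fell 7.48-fold, from 15.68 and 15.58 to 12.77 and 12.70, and a rice ferredoxin-NADP reductase probe (AK065063) fell 5.51-fold, both saturated in light-grown replicate 2. The riser was described as root ferredoxin (AK103416), the form known from tissues without photosynthesis, at 10.56 and 11.12 in light-grown and 12.76 and 12.78 in etiolated leaves, a 3.81-fold rise (1.93 ± 0.37, adjusted p = 0.0163). Plastocyanin (AK070447) read 17.18 and 15.92 against 14.97 and 14.71 and was not called (adjusted p = 0.0923), with its light-grown replicate 2 saturated. It was called under 8 of the alternative settings, 4 of which leave out one replicate and so take the lone sample of that group to vary like the other groups.

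Of 30 probes for photosynthesis and translation genes encoded in the plastid itself 5 fell (16.7%, beside 12.9% over all probes), 1 rose and 24 were not called, and the median was -0.39, which became 0.05 under median centring, where 3 fell and 2 rose. A difference from the nuclear-encoded classes was not tested. Light-grown replicate 2 was saturated at 14 of the 30. Of 2 probes for the Rubisco large subunit, rbcL, AK105600 fell 2.89-fold, from 11.88 and 11.75 to 10.26 and 10.31 (-1.53 ± 0.11, adjusted p = 0.00114). The brighter one (AK058516) read 17.22 and 16.03 in light-grown and 16.53 and 16.43 in etiolated leaves, so that the groups overlapped (-0.15 ± 0.66, adjusted p = 0.907), and its sign turned under median centring and when replicate 1 of either group was left out. The other probes that fell were AK062456 and AK059592, both described by psbB or a thylakoid structural protein, AK059143 for cytochrome b-559 and AK060578 for a chloroplast reading frame, by 2.47-fold to 2.83-fold. The first 3 of these lost their call without light-grown replicate 1 and without light-grown replicate 2, and 2 of the 30 fell without light-grown replicate 1. AK072160, the riser, went from not well above background (4.19 and 4.94) to 7.49 and 7.39, at least 5.20-fold. Of 11 probes for plastid ribosomal RNA 3 rose, AK111146 (at least 7.44-fold), AK060734 (5.57-fold) and AK060089 (4.50-fold), and 0 fell. AK060734 lost its call without light-grown replicate 2. Another of the 11 (AK060185) read 16.70 and 16.11 against 16.27 and 16.49, and its groups overlapped, with replicate 2 saturated in both. The RNA was labelled from an oligo dT primer, so values for plastid RNAs report only what that priming captured.

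**Figure D3:**
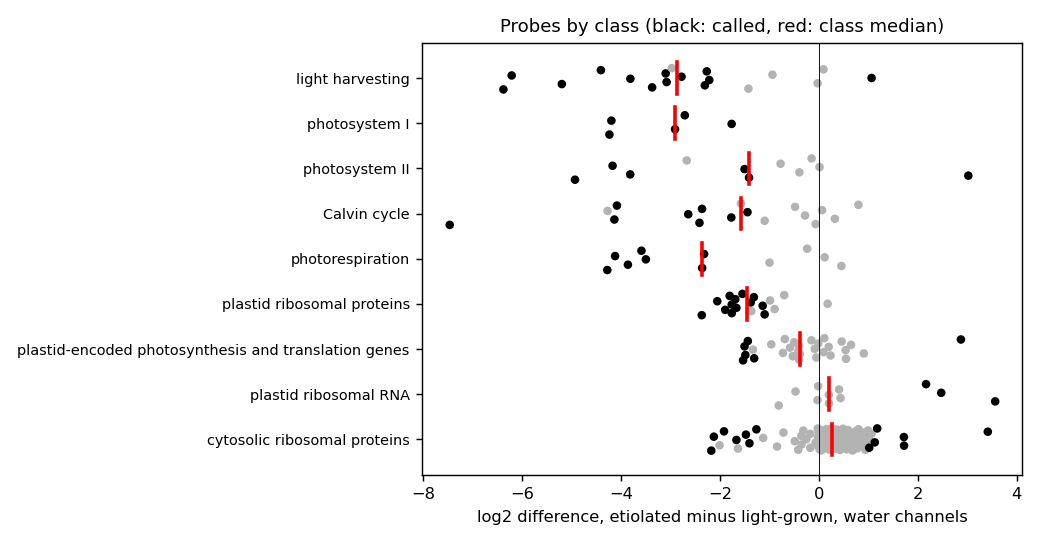
Log2 difference between etiolated and light-grown leaves for each probe of 9 classes. Black points are called, grey points are not called, and the red bar is the class median, which was -2.87 for light harvesting, -1.46 for plastid ribosomal proteins, -0.39 for plastid-encoded genes and 0.27 for cytosolic ribosomal proteins.

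Nuclear-encoded proteins of the plastid ribosome were mostly lower, and few of those of the cytosolic ribosome were called. Of 18 probes for plastid ribosomal proteins 13 fell and 0 rose, with a median of -1.46. Plastid ribosomal protein CL24 (AK060024) fell 5.15-fold, from 14.52 and 14.45 to 12.17 and 12.07 (-2.37 ± 0.20, adjusted p = 0.0017), and the probes for proteins S6 (AK061198) and L27 (AK061690, saturated in light-grown replicate 2) fell 4.14-fold and 3.71-fold. Over 114 probes for cytosolic ribosomal proteins 6 rose, 7 fell and the median was 0.27, with 12 risers and 4 fallers under median centring, 11 fallers without etiolated replicate 1 and 10 risers without etiolated replicate 2.

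Carbon fixation showed decreases of very unequal size. Of 17 Calvin cycle probes 8 fell and 0 rose, with a median of -1.57, and 12 fell without light-grown replicate 2, which was saturated at 6. Sedoheptulose-1,7-bisphosphatase (AK065773), which acts in the regeneration of the carbon dioxide acceptor, fell 17.5-fold, from 13.22 and 13.41 to 9.26 and 9.11 (-4.13 ± 0.15, adjusted p = 0.000445). Phosphoribulokinase (AK099461), which makes that acceptor, fell 16.9-fold, from 15.29 and 15.20, the latter saturated, to 11.41 and 10.91. Chloroplast phosphoglycerate kinase (AK062214) fell 6.23-fold.

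The 5 detected probes described as the Rubisco small subunit, rbcS, spanned the range of the whole class. AK068266 went from 12.43 and 11.85 to 5.39 and 3.97, not well above background in etiolated leaves, and fell at least 110.0-fold (fitted difference -7.46 ± 0.39, adjusted p = 0.000586). AK058875 fell 2.71-fold, from 16.06 and 16.10, the latter saturated, to 14.73 and 14.55, and lost its call under median centring (-0.78). AK099574 read 12.82 and 11.15 against 8.01 and 7.42, a 19.3-fold difference that was not called (-4.27 ± 1.3, adjusted p = 0.0609) but passed under 10 of the alternative settings, among them the replicate block (-4.27). AK059909 read 13.69 and 13.31 against 13.66 and 13.46 (0.07 ± 0.32, adjusted p = 0.912), so that its groups overlapped. AK070556 was higher in etiolated leaves by less than the fold limit (15.23 and 15.04 against 15.75 and 16.13, 0.80 ± 0.22, adjusted p = 0.0446), with light-grown replicate 2 saturated, and was called at 1.44 under median centring and at 1.05 without light-grown replicate 1, which gives the class 1 riser. A probe for the enzyme that methylates the small subunit (AK103602) was lower by less than the fold limit (-0.68 ± 0.11, adjusted p = 0.00964). The small subunit is encoded by a family of near-identical genes, and how far these probes share targets is unknown. Rubisco activase (AK058310), which keeps Rubisco active, read 17.04 and 15.93 against 15.48 and 15.31 and was not called (-1.09 ± 0.47, adjusted p = 0.145), and was called without light-grown replicate 2, where its signal was saturated (-1.69).

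Photorespiration recovers carbon from the oxygenation reaction of Rubisco through chloroplasts, peroxisomes and mitochondria. Of its 11 probes 7 fell and 0 rose, with a median of -2.36. A probe for glycolate oxidase (AK062189), the first peroxisomal enzyme, fell 19.4-fold, from 14.68 and 14.22 to 10.27 and 10.08 (-4.28 ± 0.16, adjusted p = 0.000445), and a rice glycolate oxidase probe (AK062433) fell 14.5-fold. Hydroxypyruvate reductase (AK072105) fell at least 3.35-fold, since it was not well above background in etiolated leaves (6.76 and 7.39 against 2.99 and 2.92). The T subunit of mitochondrial glycine decarboxylase (AK099234) fell 5.13-fold, with light-grown replicate 2 saturated. Catalase, which removes the hydrogen peroxide that glycolate oxidase makes, fell 35.3-fold for AK066378, from 14.47 and 15.43, the latter saturated, to 9.95 and 9.67 (-5.14 ± 0.47, adjusted p = 0.00197). That probe belonged to the antioxidant and glutathione class, of whose 125 probes 31 fell and 12 rose. Thioredoxin F (AK101264), which activates Calvin cycle enzymes in the light, fell 21.7-fold in the same class. Manganese superoxide dismutase (AK070528), a mitochondrial enzyme, rose 7.58-fold, from 12.57 and 12.15 to 15.32 and 15.24.

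**Figure D4:**
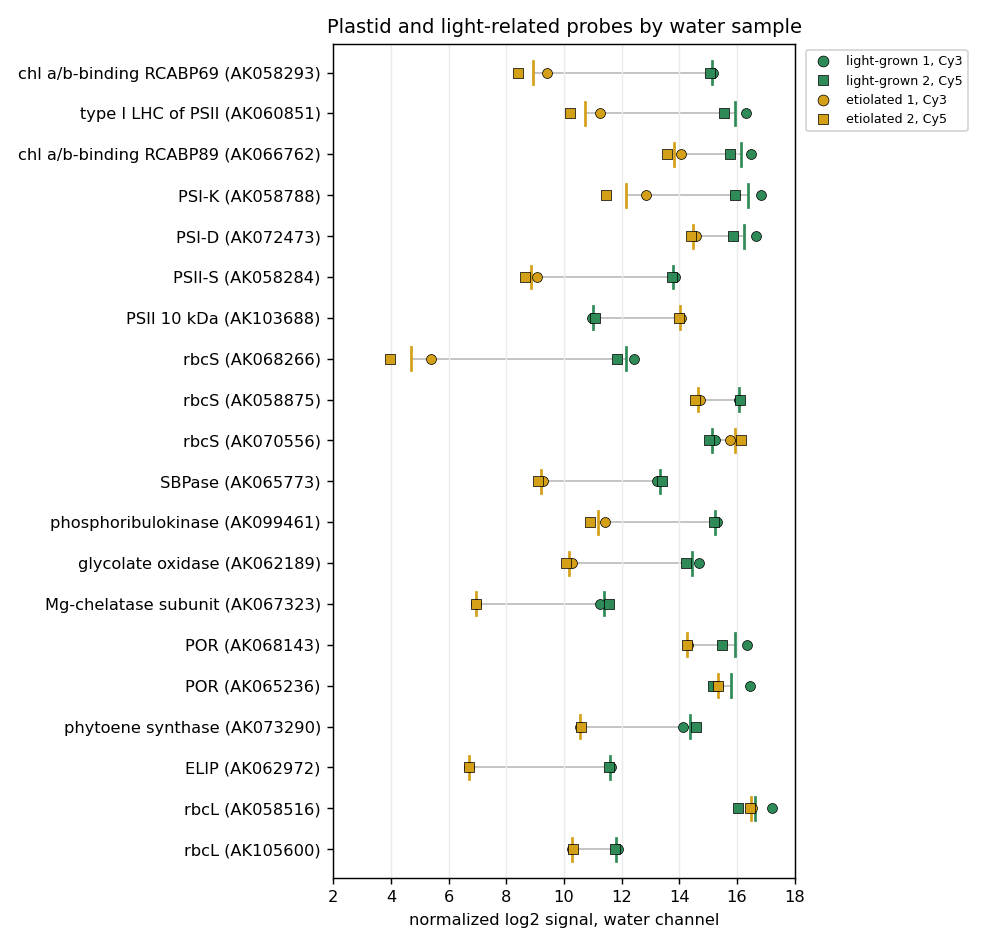
Normalized log2 signal of named photosynthesis, pigment and light-signalling probes in each of the 4 water samples. Circles are replicate 1 (Cy3), squares are replicate 2 (Cy5), green is light-grown, gold is etiolated and short bars are group means. RCABP69 (AK058293) lay at 15.17 and 15.07 in light-grown and 9.40 and 8.41 in etiolated leaves, whereas the photosystem II 10-kDa probe AK103688 ran the other way.

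Chlorophyll and heme share a synthesis pathway up to protoporphyrin, after which magnesium chelatase opens the chlorophyll branch. Of its 19 probes 10 fell and 2 rose, with a median of -1.06. A magnesium chelatase subunit (AK067323) fell 21.9-fold, from 11.24 and 11.56 to 6.93 and 6.96 (-4.45 ± 0.61, adjusted p = 0.00603). The Xantha-h subunit probe (AK070720) fell at least 3.68-fold but was ragged in etiolated leaves (7.47 and 7.31 against 5.70 and 3.02), and lost its call without either light-grown replicate. Magnesium protoporphyrin methyltransferase (AK059151), the next step of the branch, fell 7.09-fold. Protochlorophyllide oxidoreductase catalyses the step that needs light. One of its 2 detected probes (AK068143) fell 3.13-fold, from 16.35 and 15.48 to 14.29 and 14.26, a call that was lost without etiolated replicate 1 (-1.46). The other (AK065236) read 16.43 and 15.15 against 15.35 and 15.32 and was not called (-0.45 ± 0.44, adjusted p = 0.496). Light-grown replicate 2 was saturated at both, and the sign of the second turned without light-grown replicate 1 (0.24).

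Both risers lie outside the chlorophyll branch. Uroporphyrinogen III methyltransferase (AK072497), which leads to siroheme, the cofactor of nitrite and sulfite reductases, rose 5.03-fold, from 9.91 and 10.43 to 12.34 and 12.66 (2.33 ± 0.15, adjusted p = 0.000799). A protoporphyrinogen oxidase probe (AK108365) rose 4.99-fold, from 6.11 and 5.68 to 8.24 and 8.20. Heme and chlorophyll share this step, but the probe's description names a mitochondrial product. Coproporphyrinogen oxidase (AK070391), one shared step earlier, read 15.66 and 15.24 against 16.31 and 16.27, with replicate 2 saturated in both groups, and was not called (0.84 ± 0.26, adjusted p = 0.0667).

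Carotenoids protect chlorophyll and broaden light capture. Of 10 carotenoid synthesis probes 9 fell and 0 rose, with a median of -1.62 and no saturated signal in light-grown replicate 2, and the count of 9 held under every alternative fit. Phytoene synthase, the entry step, fell 13.9-fold at AK073290, from 14.13 and 14.58 to 10.54 and 10.57 (-3.80 ± 0.17, adjusted p = 0.000482), and at least 5.94-fold at AK059535. A beta-carotene hydroxylase probe (AK060559), for a later step towards xanthophylls, fell 4.90-fold.

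Most probes for photoreceptors and their partners were not called, as were most probes of the whole array. Of 29 probes 7 fell (24.1%) and 2 rose (6.9%), beside 12.9% each way over all probes. The median was -0.13, beside 0.02 over all probes. The phytochrome C probe (AK060467) read 12.97 and 13.12 in light-grown and 12.73 and 12.91 in etiolated leaves (-0.22 ± 0.15, adjusted p = 0.325), and a probe described by Arabidopsis phyB (AK071993) read 9.17 and 9.51 against 9.16 and 9.11 (adjusted p = 0.61). Neither difference passed the test. A probe described as oat phytochrome AP4 (AK072482) rose 3.32-fold, from 12.01 and 11.75 to 13.50 and 13.73 (1.73 ± 0.34, adjusted p = 0.0173). AP4 is a phytochrome A of oat, the type known to build up in darkness. Both probes for phytochrome-associated protein 1 were not called (AK068600, -0.08 ± 0.14, and AK100314, 0.04 ± 0.28). A second AP4 probe (AK065707), near the background in light-grown leaves (5.97 and 6.45) and below it in etiolated leaves, fell at least 1.84-fold, and lost its call under the normexp background correction (-0.41). COP1-interacting protein CIP7 (AK074000) was the other riser, at 2.46-fold.

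Cryptochromes are blue light receptors. One of the 2 probes described as tomato cryptochrome 2 (AK068394) fell 3.03-fold, from 9.84 and 9.85 to 8.35 and 8.15 (-1.60 ± 0.12, adjusted p = 0.00123), while the other (AK065669) was not called (adjusted p = 0.172). With the replicate block, without the dye term and with water channels alone that second probe was called at -1.04, and in the nitrate channels at -2.32. OsCRY1a (AK064910) read 12.60 and 13.24 against 12.06 and 12.08 and OsCRY1b (AK072182) read 14.55 and 14.64 against 13.82 and 14, both lower in etiolated leaves but under the fold limit or the test. Of probes described by Arabidopsis phytochrome interacting factor 4, a bHLH factor that promotes growth in the dark, AK060505 fell 5.30-fold and AK066763 was not called (0.43 ± 0.16, adjusted p = 0.107). A putative SPA1 probe (AK101974), for a repressor that works with COP1, fell 2.21-fold, and another (AK111749) was not called (adjusted p = 0.592).

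Larger decreases in the same class came from light-inducible genes. The probe described only as rice light-induced mRNA (AK067670) went from 9.79 and 9.66 to 4.01 and 3, below background in etiolated leaves, and fell at least 20.9-fold (fitted difference -6.22 ± 0.53, adjusted p = 0.00164). An early light-inducible protein (AK062972), of a family thought to bind free chlorophyll, fell 29.4-fold, from 11.62 and 11.54 to 6.71 and 6.69. Of 7 probes for clock and flowering-time genes 3 fell and 1 rose. CONSTANS-like CO4 (AK109732), a B-box factor of a family that reads day length, fell from 13.29 and 13.79 to 5.98 and 2.77 (-9.17 ± 1.36, adjusted p = 0.0075), although etiolated replicate 2 was not well above background and the size is thus poorly fixed. CONSTANS-like CO7 (AK109630) fell 9.62-fold and GIGANTEA (AK072166), a clock-controlled protein saturated in light-grown replicate 2, fell 3.96-fold. Another CONSTANS-like B-box probe (AK099722) rose 3.04-fold. Time of day was not given for either group.

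Of 87 probes for histones, replication and the cell cycle 25 rose in etiolated leaves, 9 fell and 53 were not called, with a median of 0.26. A probe described by Arabidopsis cyclin-dependent kinase inhibitor 3 (AK064723) rose 25.7-fold, from 9.68 and 10.18 to 14.57 and 14.66 (4.68 ± 0.19, adjusted p = 0.000445). This product restrains the cell cycle, whereas the next 3 belong to DNA replication. Replication origin activator 2 (AK063430) rose 16.8-fold, replication protein A1 (AK060582), which coats single-stranded DNA, 15.2-fold, from 6.95 and 6.90 to 10.86 and 10.83, and the sliding clamp PCNA (AK071591) 5.89-fold, from 7.64 and 7.72 to 10.22 and 10.26. Centromeric histone H3 (AK101975) rose 7.01-fold. On the marker list of dividing cells, 7 of 13 probes rose and 0 fell, with a median of 1.52, which was 0.82 under the normexp background correction. With the replicate block 8 of them rose and 1 fell, and in the main fit 3 of the 13 had a difference below 0. The summed signal of the list was 2.24e+05 and 1.45e+05 in light-grown and 2.40e+05 and 2.34e+05 in etiolated leaves. Light-grown replicate 2 was saturated at 3 of the 13 probes, which cuts its sum short, and the other samples at 0. A KNOTTED1-like homeobox probe (AK107637), from a family that marks shoot meristems, went from 2.80 and 4.87, not well above background, to 9.81 and 9.49, at least 24.1-fold (adjusted p = 0.00478). In the class of bHLH, bZIP and homeobox factors that holds it, 22 of 89 probes rose and 10 fell. The share of young or meristematic tissue in the excised leaves was not measured, and its part in these differences was not tested. A MADS-box probe (AK070205), from a family best known for floral organ identity, rose at least 22.8-fold.

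**Figure D5:**
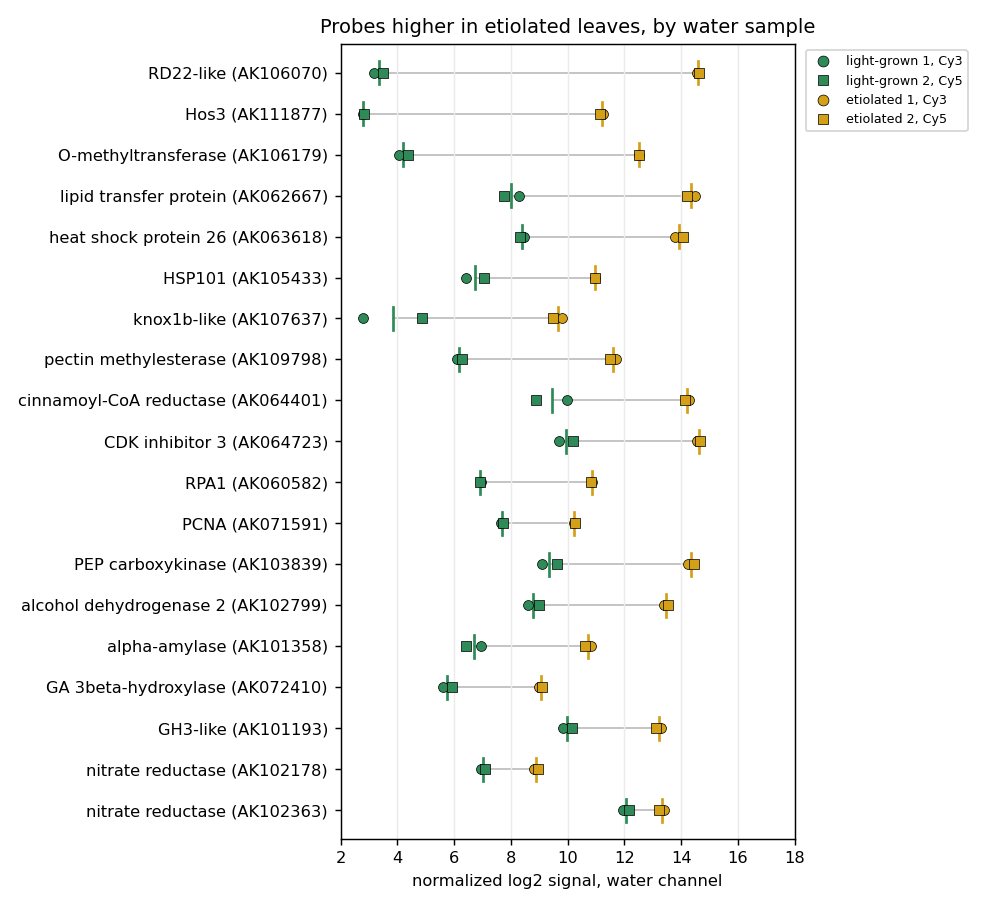
Normalized log2 signal of named probes that were higher in etiolated leaves, in each of the 4 water samples. Circles are replicate 1 (Cy3), squares are replicate 2 (Cy5), green is light-grown, gold is etiolated and short bars are group means. Every probe shown had both etiolated samples above both light-grown samples, from the RD22-like probe (AK106070, at least 743-fold) to nitrate reductase (AK102363, 2.39-fold).

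Growth hormone genes rose more often than they fell. Of 78 auxin probes 22 rose and 7 fell, with a median of 0.41. A GH3-like protein (AK101193), of a family that conjugates auxin to amino acids, rose 9.35-fold, from 9.82 and 10.14 to 13.30 and 13.11 (3.22 ± 0.25, adjusted p = 0.00125). A probe described as an auxin-regulated dual specificity kinase (AK111977) rose 9.58-fold. Of 31 probes for gibberellin, brassinosteroid and cytokinin 9 rose and 1 fell. Gibberellin 3beta-hydroxylase (AK072410), which makes the active hormone, rose 9.84-fold, from 5.6 and 5.91 to 9 and 9.11 (3.30 ± 0.18, adjusted p = 0.00063). The count of fallers in that class was 4 or 5 when one etiolated replicate was left out, and 4 with the replicate block.

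Ethylene, abscisic acid and jasmonate probes split evenly, with 18 of 78 rising (23.1%) and 18 falling (23.1%), beside 12.9% each way over all probes. Allene oxide synthase (AK105964), an early enzyme of jasmonate synthesis, rose 43.6-fold, from 5.22 and 5.38 to 10.78 and 10.72. Its light-grown signals were not well above background but lay above the dimmest detected ones. Ethylene response factor 2 (AK111775) rose 38.8-fold. In the opposite direction, lipoxygenase 2 (AK071915), which feeds the same jasmonate pathway, went from 8.39 and 8.24 to 2.94 and 2.96 and fell at least 7.90-fold. ACC oxidase (AK061064), the last enzyme of ethylene synthesis, fell 18.4-fold, from 9.63 and 10.03 to 5.53 and 5.72.

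Cell wall genes were mixed. Of 34 expansin probes 3 rose and 5 fell, with a median of 0.02 that equalled that of all probes, and 6 rose without etiolated replicate 1. Expansins loosen the wall during growth, and the alpha-expansin with the greatest rise (AK070133) went from 5.73 and 5.94 to 8.89 and 8.90, 8.37-fold. Among 139 probes for other wall enzymes 30 rose and 15 fell. A putative pectin methylesterase (AK109798) rose 42.9-fold, from 6.09 and 6.26 to 11.70 and 11.50 (5.42 ± 0.15, adjusted p = 0.000445), and cellulose synthase 8 (AK100914) rose 8.39-fold. Class III peroxidases, which crosslink or loosen walls, fell more often, with 22 of 88 lower and 10 higher. The probe described as cotton bacterial-induced peroxidase (AK067000) fell 262-fold, from 14.88 and 14.79, the latter saturated, to 7.53 and 6.08 (-8.03 ± 0.61, adjusted p = 0.00121).

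Phenylpropanoid and flavonoid genes, which supply lignin, pigments and ultraviolet screens, had 28 of 120 probes lower (23.3%) and 17 higher (14.2%). Over all probes 12.9% went each way. The largest rises there were cinnamoyl-CoA reductases, which commit intermediates to lignin. AK064401 rose 27.1-fold, from 9.99 and 8.89 to 14.27 and 14.12, and AK062591 rose 19.0-fold, from 8.00 and 8.11 to 12.16 and 12.46. On the marker list of vascular and lignifying cells 6 of 46 probes rose (13%) and 7 fell (15.2%), near the shares over all probes. An O-methyltransferase described from rye (AK106179) went from 4.06 and 4.36, not well above background, to 12.53 and 12.51, and rose at least 176-fold.

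Carbohydrate metabolism had calls in both directions. Of 68 glycolysis and fermentation probes 22 rose (32.4%) and 11 fell (16.2%), beside 12.9% each way over all probes. Of 44 probes for the TCA and glyoxylate cycles 2 rose (4.55%) and 7 fell (15.9%). Alcohol dehydrogenase 2 (AK102799), a fermentation enzyme, rose 25.6-fold, from 8.61 and 8.98 to 13.41 and 13.55 (4.68 ± 0.24, adjusted p = 0.000586). Pyrophosphate-dependent phosphofructokinase (AK069095), saturated in etiolated replicate 2, rose 14.4-fold and a putative hexokinase (AK107602), which phosphorylates glucose, 15.0-fold. Phosphoenolpyruvate carboxykinase (AK103839), a gluconeogenic enzyme, rose 31.7-fold, from 9.08 and 9.63 to 14.24 and 14.44, and the other riser of its class was an NAD-malate dehydrogenase (AK101730, 2.68-fold). Isocitrate lyase (AK063353), which diverts carbon from stored lipid into the glyoxylate cycle, went the other way, from 9.45 and 9.83 to 2.82 and 2.87, at least 19.8-fold lower. A nodule-enhanced type of malate dehydrogenase (AK068064) fell 128-fold, from 13.60 and 13.49 to 7.04 and 6.04 (-7.01 ± 0.37, adjusted p = 0.000603). Without light-grown replicate 2 the fallers of the TCA class numbered 11, and without light-grown replicate 1 or etiolated replicate 1 the risers numbered 4 and 5.

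Sucrose and starch metabolism had 16 of 93 probes higher (17.2%) and 21 lower (22.6%), beside 12.9% each way over all probes. A probe described by an alpha-amylase promoter system (AK101358) rose 16.5-fold, from 6.94 and 6.43 to 10.83 and 10.62. Starch synthase isoforms differed in direction, as II-3 (AK101978) rose 9.1-fold, from 10.88 and 10.95 to 14.03 and 14.17, and II-2 (AK066446) fell 6.10-fold, from 14.23 and 13.64 to 11.31 and 11.34.

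In nitrogen assimilation, the subject for which the arrays were made, 12 of 46 probes fell and 3 rose in water-treated etiolated leaves, and 7 fell without light-grown replicate 1. Nitrate reductase, which reduces nitrate to nitrite, was higher in etiolated leaves at both detected probes. AK102363 went from 11.95 and 12.15 to 13.40 and 13.21, 2.39-fold (1.26 ± 0.16, adjusted p = 0.0047), and AK102178 from 6.96 and 7.10 to 8.81 and 8.94, 3.59-fold (1.85 ± 0.24, adjusted p = 0.00534). In the nitrate channels of the same arrays both probes had the opposite sign, at -1.05 and -1.03. The third riser was an NADH-dependent glutamate synthase probe (AK105755, 2.58-fold), which lost its call without light-grown replicate 2. Nitrite reductase (AK064778) read 12.95 and 12.77 against 13.14 and 13.11 and was not called (0.26 ± 0.11, adjusted p = 0.134). Asparagine synthetase, known from other plants as a gene with more transcript in the dark, was not called at either detected probe (AK101821, -0.51 ± 0.27, and AK100247, 0.20 ± 0.15). Among the fallers, an AMT2-like ammonium transporter (AK100411) fell 9.35-fold, from 10.47 and 10.26 to 7.14 and 7.14.

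Heat shock proteins and chaperones had 18 of 100 probes higher (18%) and 9 lower (9%), beside 12.9% each way over all probes. HSP26 (AK063618), a small heat shock protein, rose 46.1-fold, from 8.47 and 8.33 to 13.78 and 14.07 (5.53 ± 0.22, adjusted p = 0.000445), and HSP101 (AK105433), which dissolves protein aggregates, rose 18.9-fold. Proteases and their inhibitors leaned the other way, with 43 of 198 probes lower and 16 higher. A putative serine carboxypeptidase (AK067493) fell at least 94.0-fold, from 11.64 and 12.13 to 4.83 and 4.34. A probe described by the chloroplast protease FtsH (AK063733) rose at least 39.8-fold.

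The greatest rise of any named product was that of a probe described as dehydration-responsive protein RD22 of peach (AK106070), at 3.19 and 3.49 in light-grown leaves, not well above background, and 14.56 and 14.63 in etiolated leaves, at least 743-fold (fitted difference 11.26 ± 0.29, adjusted p = 0.000445). A probe described as Hos3 (AK111877), the name of a rice homeobox gene, rose at least 70.6-fold, from 2.78 and 2.82 to 11.26 and 11.14. A nonspecific lipid transfer protein (AK062667) rose 80.5-fold, from 8.27 and 7.75 to 14.50 and 14.19, and 6 of 23 probes of that class rose and 0 fell, with 3 falling without light-grown replicate 2. A thionin (AK062831), of a family of small antimicrobial peptides, rose at least 34.9-fold. At the other end, a cytochrome P450 (AK069017) fell 108-fold, from 12.86 and 12.98 to 6.35 and 5.97, and the iron-phytosiderophore transporter yellow stripe (AK063464) fell at least 37.4-fold.

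Marker lists of tissues were also read. The green mesophyll list shares probes with the photosynthesis classes above, so its fall is no separate check of the tissue. Over all probes 12.9% rose and 12.9% fell, beside 4.17% and 54.2% on the green mesophyll list. On the root list these shares were 8.33% and 16.7%, and on the seed list 16.1% and 16.1%. Of the 31 seed probes 19 were well above background on none of the 4 arrays, so the seed shares rest largely on undetected probes. The dimmer group was at background for 5 of the called seed probes, and with dim probes left out 4 rose and 3 fell. On the green mesophyll list 13 of 24 probes fell and 1 rose, with a median of -2.28, and its summed signal was 1.25e+06 and 7.20e+05 in light-grown and 2.70e+05 and 2.45e+05 in etiolated leaves. On the root list 1 of 12 probes rose and 2 fell (4 fell without either etiolated replicate or with the replicate block, and 2 rose without light-grown replicate 2), and its summed signal was 2.17e+05 and 1.87e+05 against 8.36e+04 and 8.12e+04. Those called were the root-specific RCc3 (AK062381, 3.43-fold higher), RCc2 (AK062848, at least 4.33-fold lower, a call lost without light-grown replicate 2) and nicotianamine synthase 2 (AK112011, 10.9-fold lower with light-grown replicate 2 saturated), an enzyme of iron transport. Of 31 seed tissue probes 5 rose, all of them described by alpha-amylase, and 5 fell, which were described by alpha-amylase, steroleosin or glutelin (AK107285, at least 6.87-fold), and 8 rose without etiolated replicate 1. Summed signals of the seed list were 3.96e+04 and 3.77e+04 in light-grown and 4.89e+04 and 4.77e+04 in etiolated leaves. Light-grown replicate 2 was saturated at 14 of the 24 green mesophyll and 3 of the 12 root probes, which cuts its sums on those lists short. The part of other tissues in the differences above was not tested.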

How the data were processed

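Leaf RNA from water-treated and nitrate-treated rice seedlings was labelled with Cy3 or Cy5 and hybridised in pairs to 4 Agilent arrays. The authors deposited the scanner output, whose processed signals are intensities per spot and channel from which Feature Extraction (9.5.3.1 per the file headers, another version in the methods) had subtracted background and balanced the dyes. The deposited table of normalized ratios was not used, since a ratio of both channels holds no separate water signal. The labels give no treatment by channel, only its dye. Channel 1 was read as water because its log2 ratio to channel 2 correlated at -0.998 (23 probes, light) and -0.988 (16 probes, etiolated) with the nitrate over water fold changes the study gives.

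Control spots and outlier spots (7 to 60 per array) were left out and saturated spots kept. Processed signals were normalized by loess within arrays (span 0.3, 4 iterations) and by Aquantile between arrays, and the 2 spots of a probe were averaged. All 8 channels were fitted in a separate-channel analysis with limma 3.58.1 (lmscFit, eBayes; R 4.3.3, statmod 1.5.0 for the intraspot correlation of 0.748), with 1 coefficient per growth condition and treatment and a dye term, leaving 3 residual degrees of freedom. Each SE is the moderated SE of this fit, and p-values were adjusted over all 21493 probes tested. A floor for "at least" folds was the lowest signal among probes well above background on each array, a probe counting as well above where every retained spot was flagged so. All 4 arrays shared 1 slide and scan, so no batch could be separated.

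On simulated data, with 6000 of 21493 probes changed in the etiolated and light-grown water comparison, 28.6%, 84.1% and 93.4% of 2000 probes each were recovered at log2 changes of 1, 2 and 3, and 25 unchanged probes were called. With only 200 probes changed by a log2 of 2, 0 were recovered after adjustment.

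The text names 137 probes, and 1 withheld item is not reported here. The rule took the 12 largest increases and decreases among called probes with a product name, well above background in the brighter group and moving alike in both dye pairs, the 3 largest in each direction and the brightest of each class, and all detected probes of 7 anchor genes. Of the 268 probes it selects, those given were chosen after their values were seen, with 11 added from outside it. The classes and marker lists were searched by words in the descriptions, and members and lists were chosen with earlier results of these data known. The probe accessions matched none in the reference gene table, so no locus or sequence is given. Alternatives tried were normexp correction (offset 50), no loess, median centring, quantile normalization, filters on dim or outlier spots, no dye term, water channels alone, an intensity trend, nitrate channels, other thresholds and the omission of each array. Figures were drawn with matplotlib 3.10.9.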

Additional observations from a re-analysis of the deposited data

Results flagged for a closer look

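For 22 of the named probes the difference between etiolated and light-grown leaves was not the same in the nitrate channels as in the water channels, by limma's test of the interaction (adjusted p of at most 0.05) and by at least 1 log2 unit. Over all 21493 probes 4402 passed on the adjusted p alone, and the limit of 1 log2 unit was added after that number was seen. How many of all probes met both limits was not counted, so the 22 cannot be set against the array. Many named probes were picked for large water differences, and the same water values enter this contrast. The values below are the nitrate-channel difference minus the water-channel difference, on the log2 scale.

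Nitrate reductase had -2.31 at AK102363 and -2.88 at AK102178, where the water differences of 1.26 and 1.85 stood against -1.05 and -1.03 in the nitrate channels. Probes with a more negative difference in the nitrate channels were the type I light-harvesting protein (AK060851, -2.03), root ferredoxin (AK103416, -1.64), uroporphyrinogen III methyltransferase (AK072497, -1.34), a MADS-box factor (AK070205, -2.32), an alpha-expansin (AK070133, -2.19), a pectin methylesterase (AK109798, -1.39), phosphoenolpyruvate carboxykinase (AK103839, -1.18), a hexokinase (AK107602, -2.02) and lipoxygenase 2 (AK071915, -1.55).

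Those with a more positive one were 3 plastid-encoded probes (AK062456, 1.67, AK059592, 1.31, and AK059143, 1.14), beta-carotene hydroxylase (AK060559, 1.03), phytochrome AP4 (AK072482, 1.11), an O-methyltransferase (AK106179, 1.47), a thionin (AK062831, 2.63), allene oxide synthase (AK105964, 1.68), an auxin-regulated dual specificity kinase (AK111977, 1.06), ACC oxidase (AK061064, 1.82) and an AMT2-like ammonium transporter (AK100411, 1.10). Water and nitrate samples of a replicate shared an array.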

How the results depend on the processing

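The number of called probes, 5558, stayed within 1.5 times of that value under every alternative, from 3752 with normexp to 8131 at an adjusted p of at most 0.05 with any fold, and from 5266 to 6437 when one array was left out (with the intraspot correlation of all 4 arrays). With water channels alone it was 6152 with the dye orientation as a replicate block and 6041 without. These refits used water values from the same normalization of both channels. The share of calls higher in etiolated leaves, 50.1%, was 48.8% with normexp, 51.9% with median centring, 49.7% with quantile normalization, 49.7% without dim probes, 49.5% in the nitrate channels, 50.8% at any fold and 50.2% to 51.2% when one array was left out. Median centring moved the median log2 difference of all probes to 0.13. Normalization between arrays removes a shift common to most probes, so an even share cannot show that there was none. Of the 114 called probes named, 89 kept their call in all 15 refits and 25 lost it in at least 1. Median centring ended 9 of these calls (AK066762, AK072473, AK062456, AK058875, AK068143, AK105055, AK065248, AK060578 and AK105755), normexp 4 (AK072160, AK065707, AK062848 and AK108672) and quantile normalization 2 (AK102363 and AK105055). With normexp the risers and fallers became 28 and 25 among receptor-like kinases and 10 and 13 in sucrose and starch metabolism, and the fallers 7 among other wall enzymes, 8 in the chitinase class, 4 among MYB factors and 4 in the cell cycle class. The replicate block changed 1 of these calls, that of AK070720, and 3 of the 23 named probes that were not called passed under it.

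Signs turned for 3 called probes, all in the nitrate channels: AK062456 (0.17), AK102363 (-1.05) and AK102178 (-1.03). Among probes not called, signs turned under median centring for AK058793 (0.02), AK058516 (0.98) and AK060185 (1.06), without loess for AK060185 (0.02) and in the nitrate channels for AK100314 (-0.66). With one array left out, values ran from -0.66 to 0.47 for AK058516, -0.43 to 0.38 for AK060185, -0.23 to 0.37 for AK059909, -1.34 to 0.24 for AK065236, -0.42 to 0.01 for AK071993, -0.18 to 0.02 for AK068600 and -0.18 to 0.25 for AK100314. The cause was not tested. Saturation in light-grown replicate 2 (475 probes) limits the size of differences at bright probes, and background limits it at dim ones.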

Other observations

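Over all probes 12.9% rose and 12.9% fell in etiolated leaves. The receptor-like kinase, chitinase and AP2/ERF, WRKY and NAC classes lay near those shares. Cytochrome P450 probes fell more often than that, and probes of the ubiquitin and proteasome class less often. Of 329 receptor-like kinase probes 46 rose (14%) and 45 fell (13.7%). Of 129 probes for chitinases, glucanases and pathogenesis-related proteins 16 rose (12.4%) and 16 fell (12.4%). Among transcription factors, 12 of 81 AP2/ERF, WRKY and NAC probes rose (14.8%) and 9 fell (11.1%). Of 57 MYB probes 6 rose (10.5%) and 10 fell (17.5%). Cytochrome P450 genes had 18 of 110 probes higher (16.4%) and 25 lower (22.7%). The ubiquitin and proteasome class, which marks and degrades proteins, had 19 of 168 probes higher (11.3%) and 11 lower (6.55%), with a median of -0.04.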
